A study of Mus musculus with 8 samples.

Results

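The IL-4 receptor genes and the macrophage genes that IL-4 is known to switch on were followed in bone marrow-derived macrophages (BMDM) given LPS with or without IL-10. The set was chosen by gene name and not by its values, and held 9 genes: the receptor chains *Il4ra*, *Il13ra1* and *Il2rg*, and the alternative activation genes *Retnla*, *Chil3*, *Mgl2*, *Pparg*, *Klf4* and *Pdcd1lg2*. Probe sets annotated to 1 of these genes and to no other were used, and the brightest of a gene over the 8 arrays stood for it. On this rule 8 of the 9 members were measured, by 15 probe sets, among 18183 genes in all. No probe set carried *Il2rg* in the annotation used here, so its level is not given.

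The BMDM came from C57Bl/6 mice, 2 lacking *miR-155* (*miR-155*-/-, male per the labels) and 2 wild-type (WT, female per the labels). Their marrow had been stored frozen and was thawed and grown into macrophages with L929-conditioned medium. Each donor gave 1 array of cells that met IL-10 at 20 ng/ml 5 minutes ahead of LPS at 100 ng/ml, and 1 array of cells kept for 24 h with LPS at 100 ng/ml alone. The groups were therefore *miR-155*-/-(LPS + IL-10), *miR-155*-/-(LPS), WT(LPS + IL-10) and WT(LPS), with 2 arrays each. All 4 groups had LPS, and no unstimulated or IL-4-treated cells were among the samples analysed here. Because sex went with genotype, the 2 cannot be told apart in any comparison of *miR-155*-/- with WT cells, and *Il13ra1* lies on chromosome X. The precision of every value is limited by the number of arrays.

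IL-4 binds IL-4Rα, the product of *Il4ra*, which pairs with the common γ chain (*Il2rg*) in the type I receptor or with IL-13Rα1 (*Il13ra1*) in the type II receptor, the form that IL-13 also uses. JAK kinases bound to these chains then activate STAT6, and STAT6 with PPARγ and KLF4 drives the program known as alternative or M2 activation. IL-10 acts through STAT3 and restrains the response of macrophages to LPS, while miR-155 is a microRNA that LPS induces. The deleted microRNA is shown because it defines the *miR-155*-/- groups. Its mature sequence in RefSeq (GRCm38.p6, chr16:84714143-84714165, plus strand) has the seed, bases 2 to 8, in capitals.
mmu-miR-155-5p: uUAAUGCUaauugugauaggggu

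Values are log2 intensities made by the authors with RMA, on which a difference of 1 is a 2-fold change. A level under 2.295, the 25th percentile of all probe sets, is called low here. The macrophage markers, 8 genes, averaged 11.8 to 12.1 on every array. Markers of fibroblasts and stromal cells averaged 7.77 and 7.86 on the arrays of WT donor 1 and 3.58 to 5.17 on the other 6, and WT donor 1 held the highest value of 7 of these 8 genes. Values without this donor stand beside some of the results but not all that it moved, and the part of these cells in the results was not tested. Mast cell and basophil markers (2.35 to 2.86), dendritic cell markers (2.33 to 2.68), T and NK cell markers (2.79 to 3.45), B cell markers (2.60 to 3.07) and neutrophil markers (2.77 to 3.08) averaged near the floor on all 8 arrays. Eosinophil markers averaged 3.52 to 3.93, with *Ccr3* alone at 7.02 to 9.13. Single markers of the other lists also stood above their averages. *Camp* (neutrophils) had 4.99 to 6.30, and *Mcpt8* (mast cells and basophils) had 6.13 and 5.19 on the arrays of WT donor 1.

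Of the receptor chains, *Il4ra* and *Il13ra1* passed the test with IL-10 in *miR-155*-/- cells, and neither passed in WT cells. *Il4ra* rose in *miR-155*-/- cells by 5.25-fold, the larger of the 2 member changes that passed the test, and *Il13ra1* rose there by 2.19-fold. In WT cells *Il4ra* was 3.56-fold higher with IL-10 without overlap, but it missed the adjusted threshold (adjusted p 0.0726). The adjusted p was 0.0312 with the donor as a fixed block and 0.217 with no block. *Il13ra1* differed there by 0.91 on the log2 scale (adjusted p 0.274). More cells of a kind and more RNA per cell cannot be told apart in these bulk samples. *Retnla*, *Chil3* and *Mgl2*, which mark alternatively activated mouse macrophages, were low on all 8 arrays. *Pdcd1lg2*, which encodes the PD-1 ligand PD-L2, was lower with IL-10 in each of the 4 donors without passing the test across all arrays, and *Pparg* and *Klf4* had differences between -0.42 and 0.35 in the 4 comparisons of 2 groups, none past the test.

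**Figure D1:**
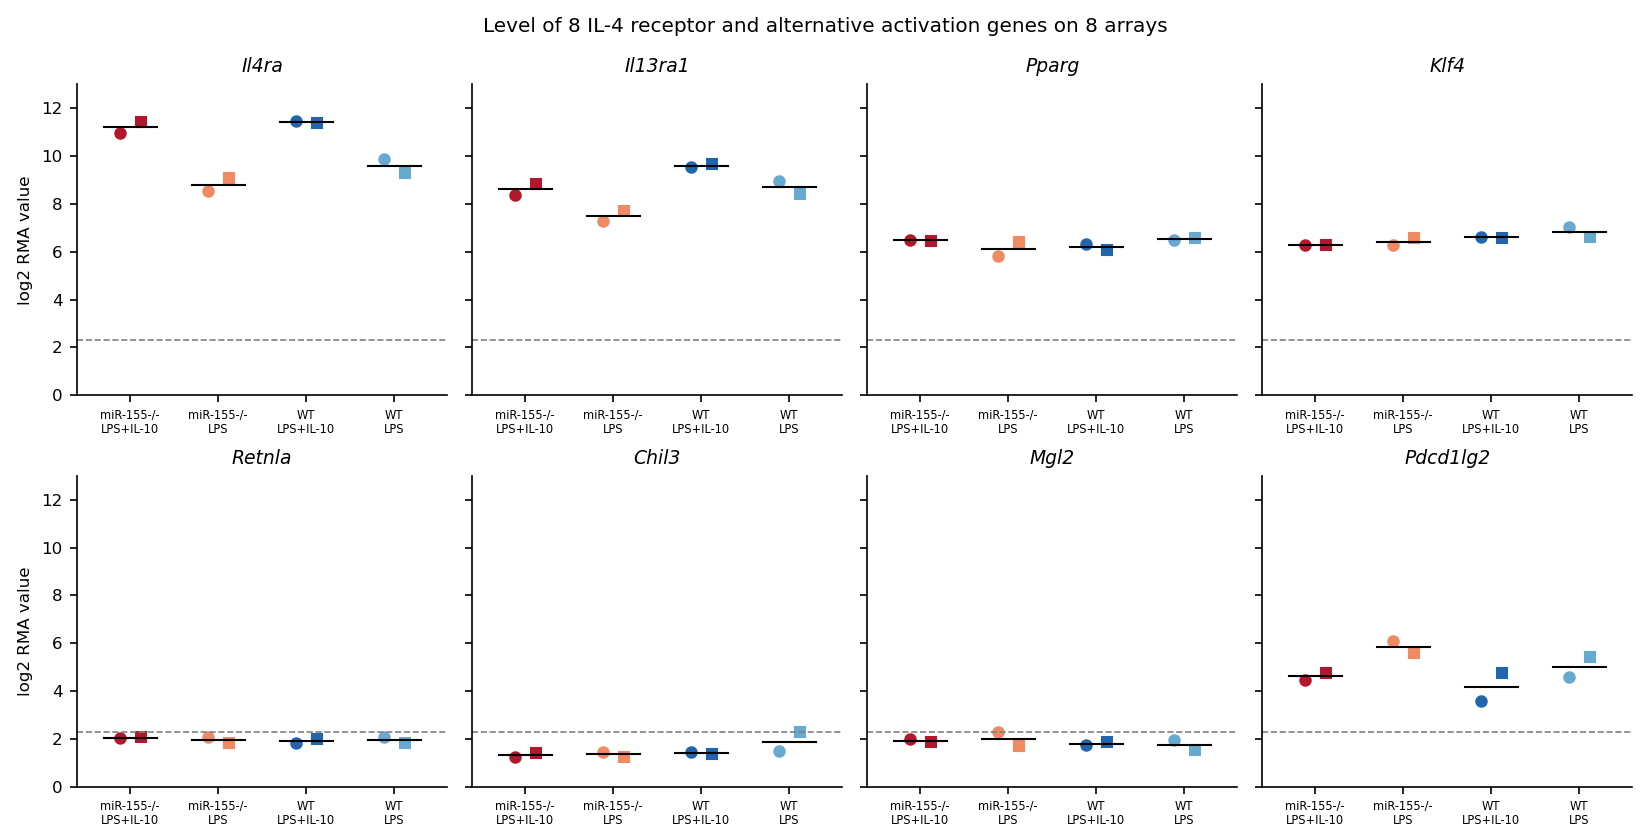
Log2 intensity of the 8 measured members on each of the 8 arrays, with LPS + IL-10 left of LPS in each genotype. Each point is 1 array (circles donor 1, squares donor 2 of a genotype), each bar the mean of 2, and the dashed line is the low level of 2.295. *Il4ra* lies between 10.96 and 11.45 with IL-10 and between 8.54 and 9.88 with LPS alone, while *Retnla*, *Chil3* and *Mgl2* lie under the line on all 8 arrays.

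IL-4Rα is the chain that both forms of the receptor share. Its gene *Il4ra* (chromosome 7) had 10.96 and 11.44 in the *miR-155*-/-(LPS + IL-10) cells and 8.54 and 9.08 in the *miR-155*-/-(LPS) cells. It had 11.45 and 11.41 in the WT(LPS + IL-10) cells and 9.88 and 9.31 in the WT(LPS) cells. All 4 arrays with IL-10 were thus above all 4 arrays with LPS alone, and the *miR-155*-/-(LPS) arrays were the lowest. With IL-10, *Il4ra* was higher by 2.39 ± 0.23 (SE, log2) in *miR-155*-/- cells, with a 95% interval of 1.86 to 2.92 and an adjusted p of 0.0049 in limma over all 45014 probe sets tested. In WT cells it was higher by 1.83 ± 0.23 (1.30 to 2.37), with an adjusted p of 0.0726, and of 0.0312 within donors, with the donor as a fixed block. This adjusted p was 0.217 with no block, 0.1765 with array weights and 0.838 with only the arrays compared.

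Within donors, the IL-10 difference of *Il4ra* was 2.42 and 2.36 in the *miR-155*-/- donors and 1.57 and 2.09 in the WT donors. The *miR-155*-/- donors thus had the larger differences, but the difference between genotypes itself was 0.56, with an interval of -0.19 to 1.31 and an adjusted p of 0.577. The call in *miR-155*-/- cells ended when *miR-155*-/-(LPS) replicate 1 was left out (adjusted p 0.0606) and in none of the other 7 cases, where it ran from 0.00874 to 0.0496. In WT cells, with 1 array left out at a time, the adjusted p ran from 0.124 to 0.587. Of the other 2 probe sets of *Il4ra*, 1423996_a_at was higher with IL-10 by 2.88 in *miR-155*-/- cells (adjusted p 0.0055) and by 2.29 in WT cells (adjusted p 0.0731). The third, 1447858_x_at, was higher by 0.98 (adjusted p 0.0813) in *miR-155*-/- cells and by 1.29 in WT cells.

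Between genotypes, *Il4ra* was lower by 0.79 ± 0.26 (SE, log2) in *miR-155*-/- than in WT cells under LPS alone without overlap, which did not pass the test (adjusted p 0.236). Its other probe sets overlapped between the genotypes there, with -0.72 (adjusted p 0.395) for 1423996_a_at and 0.09 (adjusted p 0.922) for 1447858_x_at. Without both arrays of WT donor 1 the difference was -0.50. With IL-10 the genotypes overlapped, with a difference of -0.23 (-0.84 to 0.38, adjusted p 0.823). The interval leaves room for a difference in either direction.

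*Il13ra1* encodes the chain that joins IL-4Rα in the type II receptor. It had 8.39 and 8.85 in *miR-155*-/-(LPS + IL-10) cells against 7.28 and 7.69 in *miR-155*-/-(LPS) cells. It had 9.55 and 9.66 in WT(LPS + IL-10) cells against 8.97 and 8.43 in WT(LPS) cells. No arrays overlapped in any of the 4 comparisons of 2 groups, and the *miR-155*-/- arrays with IL-10 overlapped the WT arrays without it. IL-10 raised it by 1.13 ± 0.21 (SE, log2) in *miR-155*-/- cells (adjusted p 0.0454), and the difference was 0.91 ± 0.21 in WT cells (adjusted p 0.274). Within donors it was higher by 1.11 and 1.16 in the *miR-155*-/- donors and by 0.58 and 1.24 in the WT donors. The difference between genotypes in this response was 0.23 (adjusted p 0.830).

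The call for *Il13ra1* was close to the threshold. It ended when any of the 4 *miR-155*-/- arrays was left out, with the highest adjusted p, 0.279, without *miR-155*-/-(LPS) replicate 1. It also ended without either WT(LPS + IL-10) array and without both arrays of WT donor 1, while the difference stayed at 1.13. These arrays enter this comparison only through the shared estimate of the spread and the donor correlation. The fit without both arrays of WT donor 1 had no block.

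Genotype was the second contrast in which *Il13ra1* stood apart. Without IL-10 it was lower by 1.22 ± 0.25 (SE, log2), or 2.32-fold, in *miR-155*-/- than in WT cells (interval -1.80 to -0.63, adjusted p 0.0728). With IL-10 it was lower by 0.99 ± 0.25 (-1.57 to -0.41, adjusted p 0.295). Both missed the threshold, and without WT donor 1 the values were -0.94 (adjusted p 0.261) and -1.05 (adjusted p 0.173). As the gene is X-linked and the groups differ in sex, genotype and sex cannot be told apart here.

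Of the 4 other probe sets of *Il13ra1*, 1427165_at followed the brightest one. It had 8.07 and 8.34 in *miR-155*-/-(LPS + IL-10) against 6.51 and 7.11 in *miR-155*-/-(LPS) cells. It had 9.14 and 9.32 in WT(LPS + IL-10) against 8.55 and 8.05 in WT(LPS) cells. It rose with IL-10 in *miR-155*-/- cells by 1.40 (adjusted p 0.0266) and was lower in *miR-155*-/- than in WT cells under LPS alone by 1.49 (adjusted p 0.0461). These 2 calls were lost with single arrays left out, where the adjusted p reached 0.188 and 0.251, and without WT donor 1 (0.0605 and 0.179). The other 3 probe sets did not pass between genotypes under LPS alone, where the difference was -0.32 (adjusted p 0.668) for 1427164_at and -0.36 (adjusted p 0.417) for 1451775_s_at, and 1425625_at was low in both groups. Between genotypes with IL-10, 1427165_at had -1.02 (adjusted p 0.293), 1427164_at -0.98 (adjusted p 0.349) and 1451775_s_at -0.97 (adjusted p 0.151). These were without overlap, and none passed. There 1425625_at was lower by at least 0.23 in *miR-155*-/- cells (adjusted p 0.137). Averaged over its probe sets, *Il13ra1* differed by -0.68 (adjusted p 0.0819) between genotypes under LPS alone and by 0.61 (adjusted p 0.0437) with IL-10 in *miR-155*-/- cells.

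The remaining probe sets of *Il13ra1* had smaller IL-10 differences in *miR-155*-/- cells, and none of these passed the test. For 1427164_at it was 0.12 (adjusted p 0.868), with 6.95 and 7.76 in *miR-155*-/-(LPS + IL-10) against 7.31 and 7.16 in *miR-155*-/-(LPS) cells, which overlap. For 1451775_s_at it was 0.31 in *miR-155*-/- cells, with 5.67 and 6.01 against 5.62 and 5.44, and 0.92 in WT cells (adjusted p 0.131), with 6.90 and 6.73 against 5.94 and 5.85. For this probe set the response to IL-10 differed between genotypes by -0.61 at an unadjusted p of 0.0230 and an adjusted p of 0.427. The sign of the difference in response thus varied among the probe sets, none of which passed, and which transcripts each one detects was not tested. The dimmest, 1425625_at, had 1.62 and 1.69 in *miR-155*-/-(LPS + IL-10) against 1.54 and 1.58 in *miR-155*-/-(LPS) cells. It had 2.59 and 2.45 in WT(LPS + IL-10) against 1.46 and 1.70 in WT(LPS) cells. It was low in every group except WT(LPS + IL-10), so that only a bound of at least 0.23 (log2) can be given for the difference of that group from WT(LPS).

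**Figure D2:**
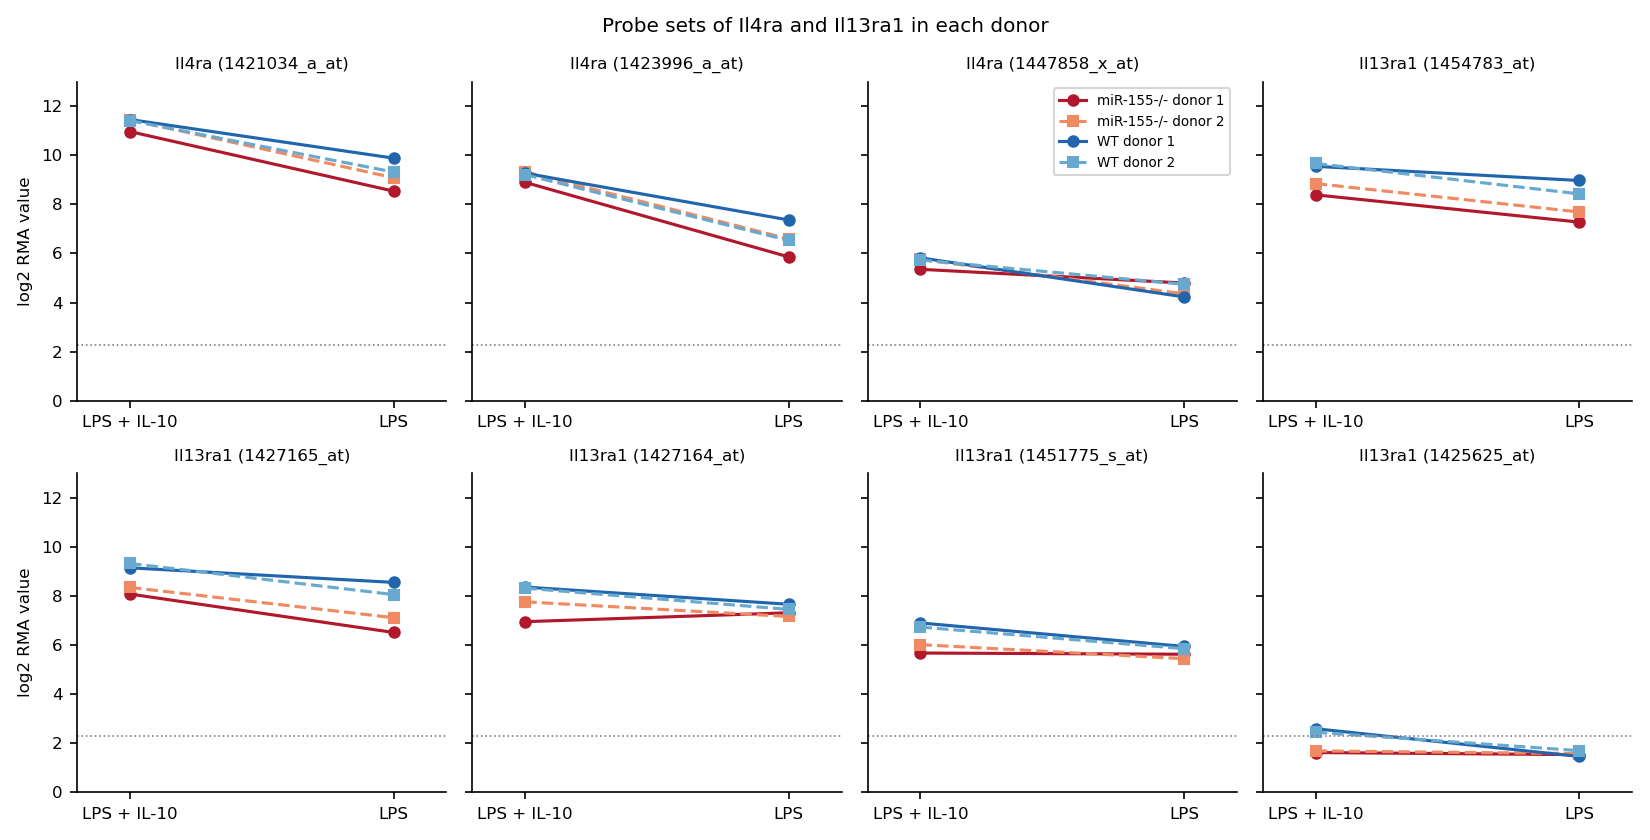
Log2 intensity of each probe set of *Il4ra* and *Il13ra1* with LPS + IL-10 left of LPS, each point 1 array and each line 1 donor, and the dotted line the low level of 2.295. All 3 probe sets of *Il4ra* are higher with IL-10 in all 4 donors, as are 4 of the 5 of *Il13ra1*, while 1427164_at is lower with IL-10 in *miR-155*-/- donor 1.

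Over all genes, 2112 of 18183 (11.6%) were higher with IL-10 in all 4 donors, and *Il4ra* and *Il13ra1* were the 2 members among them. Lower in all 4 donors were 2372 genes (13.0%), with *Pdcd1lg2* as the 1 member. By the adjusted p, IL-10 in *miR-155*-/- cells called 3.50% of genes (1.57% higher) and 2 of the 8 measured members, both higher, with 19.7% of genes and 3 members at an unadjusted p under 0.05. IL-10 in WT cells called 0.0440% of genes and 0 members in limma, while 9.25% of genes and 3 members (*Il4ra*, *Il13ra1* and *Pdcd1lg2*) had an unadjusted p under 0.05.

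Without IL-10, the genotypes differed at 1.94% of genes and at 0 members in limma. At an unadjusted p under 0.05 it was 15.3% of genes and 2 members (*Il4ra* and *Il13ra1*). With IL-10, *miR-155*-/- and WT cells differed at 0.0935% of genes and 0 members in limma, and at an unadjusted p under 0.05 at 9.40% and 1 member (*Il13ra1*). The response to IL-10 differed between genotypes at 0.0440% of genes and 0 members in limma, with 10.6% and 1 member (*Pparg*) at an unadjusted p under 0.05. By the selection of the study, an unadjusted p under 0.05 with a log2 fold change over 1, IL-10 took *Il4ra*, *Il13ra1* and *Pdcd1lg2* in *miR-155*-/- cells (3.33% of genes) and *Il4ra* in WT cells (0.962%). The same rule took *Il13ra1* between *miR-155*-/-(LPS) and WT(LPS) cells (3.25%), and no member in the comparison with IL-10 (1.61%) or in the difference between genotypes (2.09%).

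**Figure D3:**
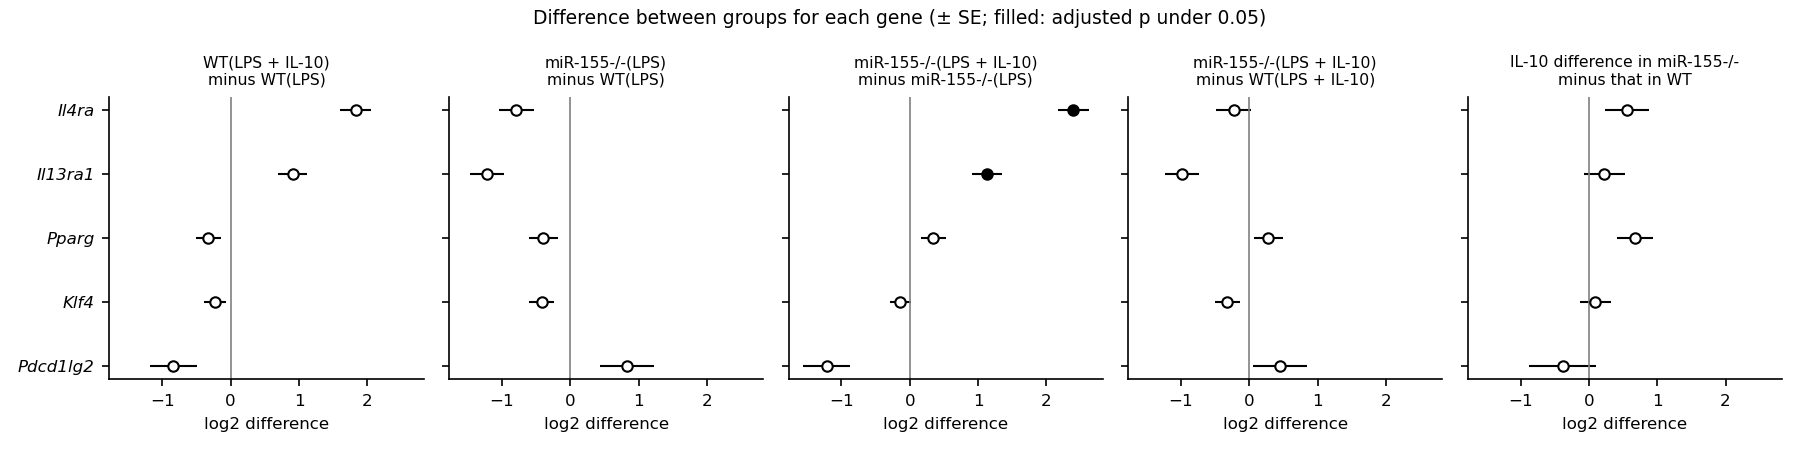
Log2 difference of the 5 members above the low level in the 4 comparisons of 2 groups and in the IL-10 difference of *miR-155*-/- minus that of WT cells, with each point the fitted difference, each bar its SE from limma and filled points an adjusted p under 0.05. The 2 filled points are *Il4ra* (2.39) and *Il13ra1* (1.13) for IL-10 in *miR-155*-/- cells.

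The promoters of the 2 receptor genes are shown because both genes were higher with IL-10 in all 4 donors. The windows run from 250 bases before to 50 after the RefSeq start (GRCm38.p6, plus strand), at chr7:125552021-125552320 for *Il4ra* and chrX:36111858-36112157 for *Il13ra1*. Capitals mark the GC box GGGCGG, searched on both strands, so that CCGCCC is a match on the minus strand.
Il4ra: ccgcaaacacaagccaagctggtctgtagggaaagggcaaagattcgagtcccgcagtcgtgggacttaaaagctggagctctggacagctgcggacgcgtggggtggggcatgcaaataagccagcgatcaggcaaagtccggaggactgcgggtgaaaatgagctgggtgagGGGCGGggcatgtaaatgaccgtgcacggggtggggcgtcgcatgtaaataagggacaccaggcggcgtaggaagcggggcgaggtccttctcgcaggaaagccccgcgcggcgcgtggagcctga
Il13ra1: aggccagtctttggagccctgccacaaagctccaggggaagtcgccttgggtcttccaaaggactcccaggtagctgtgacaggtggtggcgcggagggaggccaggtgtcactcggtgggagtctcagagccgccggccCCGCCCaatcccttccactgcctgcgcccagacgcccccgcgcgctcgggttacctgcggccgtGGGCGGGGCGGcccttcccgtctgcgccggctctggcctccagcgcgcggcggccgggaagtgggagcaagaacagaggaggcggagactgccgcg
The GC box occurred 1 time in the *Il4ra* window and 3 times in that of *Il13ra1*, 2 of these overlapping. Of the other members, *Klf4* held it 4 times, and the windows of *Pparg* held it 1, 2 and 0 times. The windows of *Il2rg*, *Retnla*, *Chil3*, *Mgl2* and *Pdcd1lg2* held none. Of all 32851 windows, 35.7% held at least 1. The *Il4ra* and *Il13ra1* windows held neither the STAT6-type letters TTCNNNNGAA nor the 3-spaced form TTCNNNGAA, which 6.95% and 8.3% of all windows held. These are matches of letters in this window only, and binding was not measured.

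Of the genes that STAT6 is known to induce, 3 were low throughout. *Retnla* (chromosome 16), which encodes the secreted protein RELMα, had values between 1.81 and 2.08 on the 8 arrays. *Chil3* (chromosome 3), the gene for the chitinase-like protein Ym1, had 1.25 to 2.28, and *Mgl2* (chromosome 11), which encodes the lectin CD301b, had 1.54 to 2.27. Each was under 2.295 on all 8 arrays and in all 4 groups, so no fold is given for them. A further probe set that the annotation gives to both *Chil4* and *Chil3* was not used. The cytokines of the receptor were likewise near the low level, with *Il4* between 1.89 and 2.46 and *Il13* between 1.81 and 2.25.

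*Pdcd1lg2* (chromosome 19) had 4.48 and 4.76 in *miR-155*-/-(LPS + IL-10) cells against 6.08 and 5.59 in *miR-155*-/-(LPS) cells. It had 3.59 and 4.74 in WT(LPS + IL-10) cells against 4.59 and 5.42 in WT(LPS) cells. The *miR-155*-/-(LPS) arrays were the highest of the 8, and the WT groups overlapped. The IL-10 difference was -1.22 ± 0.35 (SE, log2) in *miR-155*-/- cells (unadjusted p 0.0097, adjusted p 0.131) and -0.84 ± 0.35 in WT cells (adjusted p 0.531). Within donors it was -1.61 and -0.83 in *miR-155*-/- donors and -1.0 and -0.68 in WT donors. It was thus lower with IL-10 in the 4 donors in which both receptor chains were higher, and no comparison of it passed the adjusted threshold. Within donors, with the donor as a fixed block, it passed for IL-10 in *miR-155*-/- cells (adjusted p 0.0348).

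Between genotypes, *Pdcd1lg2* was higher by 0.83 ± 0.40 (SE, log2) in *miR-155*-/- than in WT cells under LPS alone (adjusted p 0.427), and by 0.42 without WT donor 1. With IL-10 the difference was 0.45 (adjusted p 0.760), and -0.12 without that donor. The direction with IL-10 therefore turned with WT donor 1. *Cd274*, which encodes the other PD-1 ligand, PD-L1, had an IL-10 difference of -0.58 in *miR-155*-/- cells (adjusted p 0.102) and -0.32 in WT cells (adjusted p 0.554). It was named after its values were seen.

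*Retnla* and *Pdcd1lg2* hold the STAT6-type letters TTCNNNNGAA in their windows, and these are shown because *Retnla* was low in every group and *Pdcd1lg2* was not. The windows are chr16:48842359-48842658 for *Retnla* and chr19:29410669-29410968 for *Pdcd1lg2* (RefSeq, GRCm38.p6, plus strand), searched on both strands, with the match in capitals.
Retnla: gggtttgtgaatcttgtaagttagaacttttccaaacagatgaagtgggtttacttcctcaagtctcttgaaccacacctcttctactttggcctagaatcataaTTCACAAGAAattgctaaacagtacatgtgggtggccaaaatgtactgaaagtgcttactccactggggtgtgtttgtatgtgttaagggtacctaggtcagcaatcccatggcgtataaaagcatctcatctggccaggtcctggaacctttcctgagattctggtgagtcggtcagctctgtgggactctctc
Pdcd1lg2: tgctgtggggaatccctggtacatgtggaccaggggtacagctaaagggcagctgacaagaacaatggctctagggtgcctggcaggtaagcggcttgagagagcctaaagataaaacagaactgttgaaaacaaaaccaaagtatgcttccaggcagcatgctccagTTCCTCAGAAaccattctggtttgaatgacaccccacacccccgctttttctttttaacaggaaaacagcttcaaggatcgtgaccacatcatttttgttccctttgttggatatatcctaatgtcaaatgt
The match began at -145 from the start of *Retnla* and at -82 from that of *Pdcd1lg2*. *Chil3* held the 3-spaced form TTCNNNGAA 1 time, and the windows of *Mgl2*, *Klf4* and *Pparg* held neither form.

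*Pparg* (chromosome 6), the nuclear receptor that supports lipid uptake and oxidation in alternatively activated macrophages, had 6.48 and 6.47 in *miR-155*-/-(LPS + IL-10) against 5.84 and 6.41 in *miR-155*-/-(LPS) cells. It had 6.33 and 6.06 in WT(LPS + IL-10) against 6.47 and 6.57 in WT(LPS) cells. Within donors the IL-10 difference was 0.64 and 0.06 in *miR-155*-/- and -0.15 and -0.50 in WT donors, so the 2 genotypes pointed opposite ways. The difference of the response was 0.67 ± 0.26 (SE, log2) at an unadjusted p of 0.0363 and did not pass the adjustment (adjusted p 0.456). The 4 single comparisons were 0.35 and -0.32 for IL-10 in *miR-155*-/- and WT cells (adjusted p 0.400 and 0.617), and -0.39 and 0.28 between genotypes with LPS and with LPS + IL-10 (adjusted p 0.484 and 0.722). Without WT donor 1 the IL-10 difference in WT cells was -0.50 and the difference of the response 0.85 (adjusted p 0.459).

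*Klf4* (chromosome 4), a zinc-finger factor that works with STAT6, had 6.27 and 6.29 in *miR-155*-/-(LPS + IL-10) against 6.27 and 6.56 in *miR-155*-/-(LPS) cells. It had 6.63 and 6.57 in WT(LPS + IL-10) against 7.05 and 6.61 in WT(LPS) cells. All *miR-155*-/- arrays were under all WT arrays, with differences of -0.42 with LPS (adjusted p 0.379) and -0.32 with LPS + IL-10 (adjusted p 0.658). The WT(LPS) array of donor 1 was the highest, and without both arrays of that donor these were -0.20 and -0.29. The IL-10 differences were -0.14 in *miR-155*-/- and -0.23 in WT cells (adjusted p 0.744 and 0.677), and the WT value was -0.04 without WT donor 1. Its other probe set, 1417395_at, was lower with IL-10 in all 4 donors, with differences of -0.16 in *miR-155*-/- and -0.31 in WT cells.

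In a list of 19 genes of IL-4 and IL-13 signalling, all measured, IL-10 in *miR-155*-/- cells lowered 2 and raised 0. The median was -0.09 against -0.00333 over all genes. For this and the lists below, the share of all genes called was 3.50% for IL-10 in *miR-155*-/- cells. It was 1.94% between genotypes under LPS alone. *Jak2*, a kinase of the type II receptor, had 10.76 and 10.85 in *miR-155*-/-(LPS + IL-10) against 11.70 and 11.63 in *miR-155*-/-(LPS) cells. It had 10.59 and 10.30 in WT(LPS + IL-10) against 10.26 and 10.54 in WT(LPS) cells, so the *miR-155*-/-(LPS) arrays were the highest. It fell with IL-10 in *miR-155*-/- cells by 0.86 (adjusted p 0.0355) and was higher by 1.27 in *miR-155*-/- than in WT cells under LPS alone (adjusted p 0.0231). *Tyk2*, a further kinase of this receptor, fell by 0.80 with IL-10 in *miR-155*-/- cells (adjusted p 0.0478). Dropping 1 array ended the 2 *Jak2* calls in 4 and 6 of the 8 cases (adjusted p at most 0.239 and 0.181) and the *Tyk2* call in all 8 (at most 0.279). The dimmer probe set of *Jak2* passed too, with -1.45 for IL-10 in *miR-155*-/- cells (adjusted p 0.00547) and 1.87 between genotypes under LPS alone (adjusted p 0.00614). That of *Tyk2* had -0.22 for IL-10 in *miR-155*-/- cells (adjusted p 0.568).

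*Stat6*, the factor that carries the IL-4 signal, had 10.67 and 10.90 in *miR-155*-/-(LPS + IL-10) against 11.37 and 11.18 in *miR-155*-/-(LPS) cells. It had 10.81 and 11.05 in WT(LPS + IL-10) against 10.67 and 11.12 in WT(LPS) cells. Its IL-10 difference was -0.49 in *miR-155*-/- (unadjusted p 0.0224, adjusted p 0.198) and 0.04 in WT cells, and the *miR-155*-/- groups did not overlap. *Jak1* (-0.09 and -0.08), *Jak3* (0.05 and 0.41) and the adaptor *Irs2* (0.04 and 0.31) did not pass either for IL-10 in *miR-155*-/- and WT cells. *Il13ra2*, the decoy receptor for IL-13, had 2.78 and 2.83 in *miR-155*-/-(LPS + IL-10) against 2.44 and 2.33 in *miR-155*-/-(LPS) cells. It had 3.96 and 3.07 in WT(LPS + IL-10) against 3.59 and 2.72 in WT(LPS) cells. In WT cells IL-10 called 0 of the 19 in limma, with 2 at an unadjusted p under 0.05, beside 9.25% of all genes. The median there was 0.04 against -0.00326 over all genes. Between *miR-155*-/-(LPS) and WT(LPS) cells 1 was higher, *Jak2*, with a median of 0.21 against 0.03.

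Among other genes of alternative activation, 22 of 26 listed were measured. IL-10 raised 2 in *miR-155*-/- cells, *Mrc1* and *Cd163*, and 3 were lower in *miR-155*-/- than in WT cells under LPS alone, *Mrc1*, *Cd163* and *Clec7a*. At an unadjusted p under 0.05, 3 were higher and 7 lower with IL-10 in *miR-155*-/- cells. Between genotypes under LPS alone, 3 were higher and 6 lower in *miR-155*-/- cells. Of all genes, 19.7% and 15.3% were under this threshold in these 2 comparisons. The list medians were -0.00164 and -0.07, against -0.00333 and 0.03 over all genes. *Mrc1*, the mannose receptor CD206, had 12.07 and 12.22 in *miR-155*-/-(LPS + IL-10) against 9.0 and 9.92 in *miR-155*-/-(LPS) cells. It had 12.58 and 12.69 in WT(LPS + IL-10) against 12.25 and 12.10 in WT(LPS) cells, so the low values were those of the *miR-155*-/-(LPS) arrays. It rose with IL-10 by 2.68 in *miR-155*-/- cells (adjusted p 0.00441, at most 0.0449 with 1 array left out). It was lower by 2.71 in *miR-155*-/- than in WT cells under LPS alone (adjusted p 0.0101), a call that ended without either WT(LPS) array (0.0922 at most). The difference of the response between genotypes was 2.22 (adjusted p 0.171).

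*Cd163*, the scavenger receptor for haemoglobin, rose with IL-10 in *miR-155*-/- cells by 1.69 (adjusted p 0.0215) and was lower by 1.66 in *miR-155*-/- than in WT cells under LPS alone (adjusted p 0.0491). *Clec7a*, the β-glucan receptor Dectin-1, was lower by 1.76 in *miR-155*-/- than in WT cells under LPS alone (adjusted p 0.0242). With 1 array left out these 3 calls ended in 7, 8 and 7 of the 8 cases, with adjusted p-values of at most 0.175, 0.283 and 0.155. *Arg1*, the arginase that IL-4 induces, had 8.37 and 9.90 in *miR-155*-/-(LPS + IL-10) against 7.40 and 8.72 in *miR-155*-/-(LPS) cells. It had 12.39 and 11.27 in WT(LPS + IL-10) against 10.99 and 9.60 in WT(LPS) cells. Both WT arrays with IL-10 were above the others, but no comparison passed. Between genotypes the difference was -2.24 under LPS alone without overlap (adjusted p 0.188) and -2.70 with IL-10 (adjusted p 0.283). For IL-10 it was 1.53 in WT cells (adjusted p 0.491) and 1.07 in *miR-155*-/- cells (adjusted p 0.402). *Ccl17* (-0.19 and 0.16), *Ccl22* (-0.51 and 0.05), *Irf4* (-0.12 and -0.15) and *Clec10a* (0.17 and -0.54) did not pass for IL-10 in *miR-155*-/- and WT cells. A second probe set of *Irf4*, near the low level, was lower with IL-10 by at least 0.30 in *miR-155*-/- cells (adjusted p 0.331) and had a difference of -0.84 in WT cells (unadjusted p 0.0248, adjusted p 0.475).

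Partners and targets of PPARγ gave 18 measured genes of 20 listed. Of these, 1 was lower in *miR-155*-/- than in WT cells under LPS alone, *Cd36*, the fatty acid and lipoprotein scavenger receptor, by 1.01 (adjusted p 0.0245, ended by dropping 1 array in 6 of 8 cases, 0.167 at most). Its other 2 probe sets also passed (-0.93, adjusted p 0.0461, and -1.36, adjusted p 0.0297). Of this list, 0 passed with IL-10 in limma in either genotype. At an unadjusted p under 0.05 these were 4 in *miR-155*-/- and 2 in WT cells, beside 19.7% and 9.25% of all genes. Of the KLF family, 14 of 15 were measured and 1, *Klf2*, passed. *Klf2*, a factor that quiets inflammatory macrophages, rose with IL-10 by 1.09 in *miR-155*-/- cells (adjusted p 0.0100) and was lower by 1.32 in *miR-155*-/- than in WT cells under LPS alone (adjusted p 0.0136). Each call ended in 4 of the 8 cases with 1 array left out, at 0.105 and 0.122 at most.

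The receptors that share the common γ chain were 6, all measured. Of these, 1 passed, *Il15ra*, the chain that presents IL-15. It fell with IL-10 in *miR-155*-/- cells by 1.56 (adjusted p 0.0307) and was higher by 2.00 in *miR-155*-/- than in WT cells under LPS alone (adjusted p 0.0304). With 1 array left out the calls ended in 7 and 8 of the 8 cases, at 0.173 and 0.189 at most. Its other probe set had differences of -1.01 (adjusted p 0.223) and 1.59 (adjusted p 0.151), which did not pass. For IL-10 in *miR-155*-/- cells the medians were -0.06 for the PPARγ list, -0.03 for the KLF family and -0.14 for the γ chain receptors, against -0.00333 over all genes. Under LPS alone they were -0.27, 0.09 and 0.32 for *miR-155*-/- against WT cells, beside 0.03 over all genes. In WT cells IL-10 called 0 genes of the 5 lists in limma. At an unadjusted p under 0.05 these were 2, 8, 2, 2 and 1 in the order given, beside 9.25% of all genes. Between genotypes with IL-10 and in the difference of the response none of the genes named here passed.

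Both arrays of WT donor 1, with its high stromal markers, were left out of the calls of these lists as well. The IL-10 differences in *miR-155*-/- cells hold no WT array and stayed the same. Leaving out this donor is therefore no check on the stromal markers in that comparison. The calls of *Tyk2*, *Cd163* and *Il15ra* ended in it, as the fit lost the donor block and the WT arrays that inform the spread. Under LPS alone, with 1 WT array left, *Clec7a* stayed lower in *miR-155*-/- than in WT cells. The calls of *Jak2*, *Mrc1*, *Klf2*, *Cd36*, *Il15ra* and *Cd163* ended under LPS alone.

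**Figure D4:**
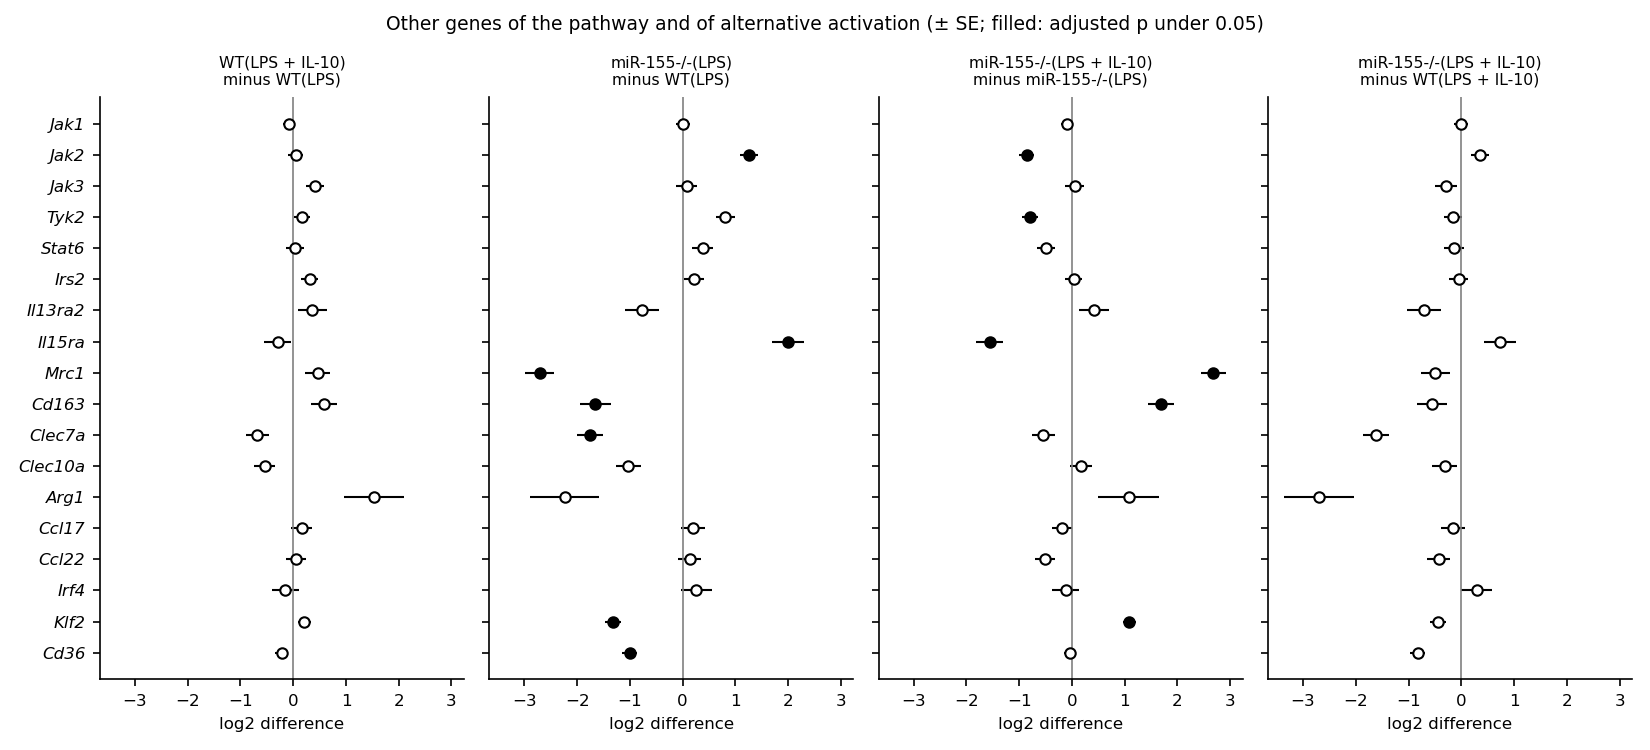
Log2 differences of the named genes of IL-4 signalling and alternative activation in each comparison of 2 groups, with each bar the SE and filled points an adjusted p under 0.05. *Mrc1* has the largest differences among the filled points, 2.68 for IL-10 in *miR-155*-/- cells and -2.71 between *miR-155*-/-(LPS) and WT(LPS) cells.

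The genes closest in pattern to the 2 receptor chains were found by the root mean square difference of values centred on each gene's own mean over the 8 arrays. For *Il4ra*, which spanned 2.91, these were *Tnfsf14* (0.261), a ligand of the TNF family, *Slc39a8* (0.263), a zinc transporter, and *Igfbp6* (0.330), which binds insulin-like growth factors. For *Il13ra1*, which spanned 2.39, they were *Fcgrt* (0.189), the neonatal Fc receptor, *Slc39a12* (0.209), a further zinc transporter, and *Mmp19* (0.216), a matrix metalloproteinase. *Tnfsf14* was higher with IL-10 by 2.18 in *miR-155*-/- and by 2.20 in WT cells. *Mmp19* was higher by 1.51 in *miR-155*-/- cells and by 1.06 in WT cells.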

How the data were processed

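BMDM from 4 mouse donors, 2 *miR-155*-/- and 2 WT, gave 8 Affymetrix mouse arrays after NuGEN amplification. As deposited, the values are on a log2 scale, after background correction, quantile normalization and summary to 1 value per probe set by RMA (affy). The versions the authors ran were not given in the sources used here. There were 0 array columns of no sample. Symbols came from the platform annotation: of 45101 probe sets, 34958 had 1 symbol, 932 several and 9211 none. Tests ran on 45014 probe sets, without 64 controls and without 23 for *Xist* or genes of chromosome Y.

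Groups were compared over all 8 arrays by lmFit and eBayes of limma 3.58.1, run in R 4.3.3, with donor as a random block (duplicateCorrelation), and p-values were adjusted by Benjamini-Hochberg over the 45014 probe sets. A gene was called at an adjusted p under 0.05. The donor follows from genotype and replicate number, since LPS and LPS + IL-10 cells came from the same mice, and deviations from the group means correlated at 0.230 in *miR-155*-/- and 0.754 in WT pairs. The pipeline was tested on simulated data for *miR-155*-/-(LPS) against WT(LPS) cells only, and not for the IL-10 comparisons. Shares of called genes are over 18183 genes, by their brightest probe set of 1 symbol. Promoter and miRNA sequences are from RefSeq (GRCm38.p6), and figures were drawn with matplotlib 3.10.9.

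All members were named, 12 further genes of the pathway always, and others of the lists where they passed in any comparison, at most 6 per list by size. For members with a mean of at least 6 and a span over 1, the 3 most alike genes were named. The members, lists and tests were chosen with earlier results of these data known. Alternatives were only the arrays compared, the fit without the block or with a fixed donor block, a filter that kept means of 6 or more, robust estimates with an intensity trend, array weights, median centring, a second quantile normalization, the mean over probe sets, the selection of the study, each array left out, and both arrays of WT donor 1 left out. Leaving out 1 array of a group of 2 assumes that the lone array varies like the other groups.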

Additional observations from a re-analysis of the deposited data

How the results depend on the processing

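No member changed direction under any alternative run in the comparisons where it passed the test or the selection. IL-10 in *miR-155*-/- cells called 2 members (*Il4ra* and *Il13ra1*), and 1 (*Il4ra*) with no replicate block, with only the arrays compared and without both arrays of WT donor 1. The range with 1 array left out was 0 to 2, with 0 without *miR-155*-/-(LPS) replicate 1. IL-10 in WT cells called 0 members, and 1 (*Il4ra*) with the donor as a fixed block (adjusted p 0.0312), a mean of at least 6, the intensity trend, median centring, the mean over probe sets, and the selection of the study. *miR-155*-/-(LPS) against WT(LPS) cells called 0, and 1 (*Il13ra1*) with a mean of at least 6, the intensity trend, and the selection, while the other comparisons gave 0 under every alternative run. For IL-10 in *miR-155*-/- cells *Pdcd1lg2* passed with the donor as a fixed block (adjusted p 0.0348) and by the selection of the study, which each took 3 members. The cause was not tested. Within a comparison the differences ranged from 2.09 to 2.60 for *Il4ra*, from 0.61 to 1.30 for *Il13ra1* and from -1.51 to -0.93 for *Pdcd1lg2* with IL-10 in *miR-155*-/- cells, and from 1.56 to 2.11 for *Il4ra* in WT cells. The fit with the donor as a fixed block cannot compare genotypes, and the fit with only the arrays of 1 genotype had no block, as its correlation could not be estimated. The fit without both arrays of WT donor 1 had no block either. For IL-10 in *miR-155*-/- cells it gave the same values as the fit with only the arrays compared. The 95% intervals in the report use a spread shared over all arrays and are not adjusted for the number of tests. What 2 arrays a group could detect was not tested. Over all probe sets, the calls for IL-10 in *miR-155*-/- cells numbered 1206, and 492 with no block, 1572 with the donor as a fixed block, 752 with only the arrays compared, 2422 with the intensity trend, 2410 with array weights and 3183 with a mean of at least 6. For IL-10 in WT cells they were 14, and 0 to 327 under these settings (66 with the fixed block), and for *miR-155*-/-(LPS) against WT(LPS) cells 659, and 77 to 1570. Between genotypes with IL-10 they were 32, and 2 to 295, and for the difference of the response 15, and 1 to 105. With 1 array left out the 5 counts were 112 to 814, 0 to 0, 53 to 478, 2 to 13 and 1 to 2 in this order. Of the other named genes, *Jak2* (adjusted p 0.0693), *Tyk2* (0.126), *Cd163* (0.0716) and *Il15ra* (0.0927) for IL-10 in *miR-155*-/- cells and *Cd163* (0.0653) under LPS alone lost their call with no block.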
